A study of Mus musculus and Sus scrofa with 18 samples.

Results

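Immunoglobulin variable (V) gene segments were examined in RNA from the striatum of 9 mice. The set held all genes named Ighv, Igkv or Iglv whose counts summed to at least 10 over the 9 libraries. This gave 156 of the 55357 genes in the count table, out of 348 V segments listed there, while 51 V segments had between 1 and 9 counts and 141 had none. The segments were therefore selected on the same counts that are described here. Just inside the threshold, Ighv1-14 had 10 counts, all from untreated replicate 3. Just outside it, Igkv7-33 had 9 counts, all from treated replicate 1, and Igkv8-34 had 9 counts, all from untreated replicate 2.

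The study tested whether the RNA-cutting enzyme CasRx, carried by AAV9 and guided to HTT transcripts, changes the striatum of Huntington's disease (HD) knock-in animals. In the heterozygous HD 140Q-KI mice, exon 1 of human HTT, with a long CAG tract, is inserted at the mouse Htt locus. Untreated HD mice (n = 3) received AAV9-CasRx with a control gRNA vector. Treated HD mice (n = 3) received AAV9-CasRx with 2 vectors for HTT gRNAs, and WT mice (n = 3) received the control gRNA vector without CasRx. The vectors were injected into the striatum on both sides at 6 months of age, and the mice were euthanised 1.5 months later. CasRx was driven by the CAG promoter, which is active in most cell types, and the gRNA vectors carried a GFP reporter. All HD mice had received CasRx and no WT mouse had, so that in any comparison with WT effects of the knock-in allele and of CasRx delivery cannot be told apart. Equal numbers of each sex were planned, but Y-linked genes were counted only in the 3 WT mice and untreated replicate 1. In treated against WT mice, sex therefore cannot be told apart from the knock-in allele and CasRx delivery either. Untreated replicate 1 was also the HD library with the fewest V counts (960). The part of sex in the results below was not tested. Each library is 1 mouse, with 27184356 to 32102121 counts. Of 8 markers of striatal neurons, 7 were lower in untreated and 6 in treated mice than in WT mice, and all 8 were counted in every library.

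An antibody is built of heavy and light chains, and the N-terminal domain of each chain binds antigen. That domain is encoded by a V segment joined to shorter segments during B cell development, so that each B cell and its daughters as a rule use a single heavy and a single light V segment. Light chains come from the kappa or the lambda locus. Plasma cells, which secrete antibody, hold very large amounts of these transcripts. A healthy brain holds few B cells, mostly at its borders. In bulk tissue, more cells of a type and more RNA per cell cannot be told apart.

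The ends of 6 of the most counted segments are shown because a read is assigned to a segment by its match to these letters. Each is the last 120 bases of the coding strand, 5′ to 3′, as given by the transcripts of GENCODE M21 (build GRCm38). The capitals mark the codon of the conserved cysteine near the 3′ end of the V segment. The heavy segments Ighv1-9 and Ighv1-26 lie on chromosome 12, the kappa segments on chromosome 6 and Iglv1 on chromosome 16.
Ighv1-9: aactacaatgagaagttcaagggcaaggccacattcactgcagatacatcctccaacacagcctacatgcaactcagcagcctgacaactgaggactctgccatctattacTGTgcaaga
Ighv1-26: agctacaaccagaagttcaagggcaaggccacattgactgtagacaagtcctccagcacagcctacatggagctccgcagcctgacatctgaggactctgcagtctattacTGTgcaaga
Igkv4-53: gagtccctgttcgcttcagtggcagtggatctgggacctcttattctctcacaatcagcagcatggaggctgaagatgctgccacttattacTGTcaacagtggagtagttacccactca
Igkv8-24: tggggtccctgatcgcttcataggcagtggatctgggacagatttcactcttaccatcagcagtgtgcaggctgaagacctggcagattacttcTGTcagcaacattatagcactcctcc
Igkv16-104: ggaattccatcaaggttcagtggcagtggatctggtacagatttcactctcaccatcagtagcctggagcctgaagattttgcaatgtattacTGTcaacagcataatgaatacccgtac
Iglv1: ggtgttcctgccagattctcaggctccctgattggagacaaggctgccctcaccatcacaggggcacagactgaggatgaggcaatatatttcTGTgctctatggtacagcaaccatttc

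After that codon, 6 bases remain in both heavy segments and 23 to 25 bases in the light ones, because a light V segment encodes more of the antigen-binding loop that spans the joint. The motif was searched as TAT or TAC, followed by a codon for tyrosine or phenylalanine (TAT or TAC or TTT or TTC) and then TGT or TGC, on the coding strand of the last 60 bases. It was found in 152 of the 156 segments (97.4%), in 126 of the 192 other V segments (65.6%) and in 69 of the 128 pseudogenes among those (53.9%).

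V segments were almost absent from WT striatum and were counted in every HD library. The WT libraries held 7, 5 and 7 V counts. The untreated libraries held 960, 5209 and 13126, and the treated libraries 11010, 19187 and 12071. As CPM, a count scaled by the TMM library size, the mean was 0.227 ± 0.041 for WT mice, 218.2 ± 209.5 for untreated mice and 453.1 ± 157.2 for treated mice (SD, n = 3). Every HD library was above every WT library, while the HD groups overlapped, since untreated replicate 3 (446 CPM) lay above treated replicates 1 (337 CPM) and 3 (390 CPM). The log2 ratio of the treated to the untreated mean was 1.05, and without untreated replicate 3 it was 2.12. The untreated libraries spanned the wider range, with untreated replicate 1 at 33.7 CPM below the other 5 HD libraries.

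**Figure D1:**
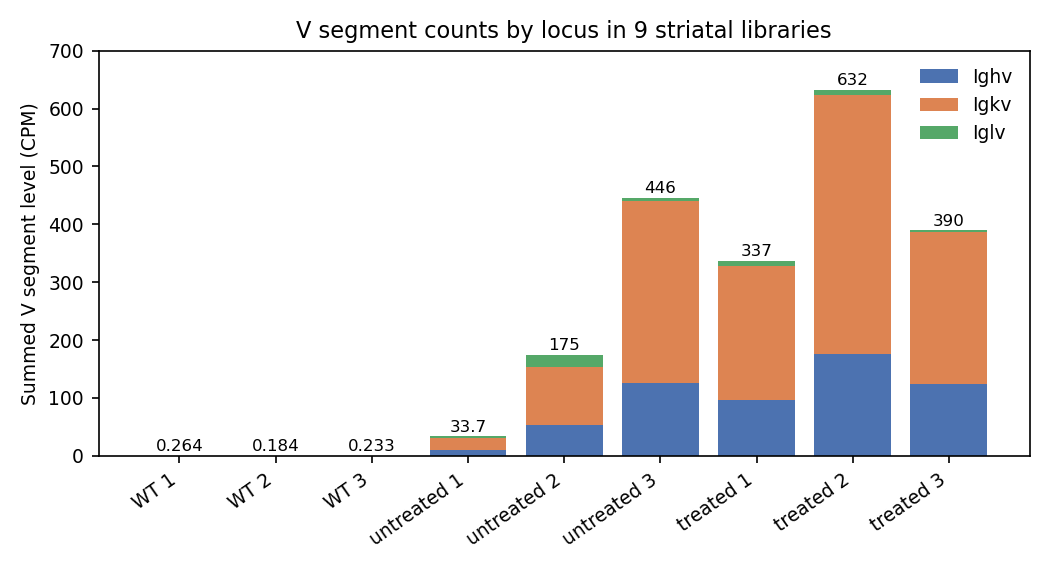
Summed level of the 156 V segments in each of 9 libraries (vertical axis, CPM), with bars divided into heavy (Ighv), kappa (Igkv) and lambda (Iglv) segments. The 3 WT libraries sit between 0.184 and 0.264, untreated libraries between 33.7 and 446, and treated libraries between 337 and 632.

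No count was seen in WT mice for 149 of the 156 segments, where a count of 0 in a library allows up to 3. The 7 segments with a WT count were Iglv1 (5 counts, in WT replicate 3), Igkv15-103 (4, in WT replicate 2), Igkv8-19 (3, in WT replicate 1), Ighv1-9, Igkv4-63, Igkv13-84 and Igkv6-20. The last 4 had 2, 2, 2 and 1 WT counts and are named here after their values were seen. Each WT count of a segment came from a single library. In 28 segments all 6 HD libraries lay above every WT library, and 6.45% of all 26248 genes did when compared in the same way. That share cannot serve as a test here, because the V segments reached the threshold almost wholly through the HD libraries. Any of the 149 segments at 0 in WT mice lay above WT once it was counted in all 6 HD libraries. The other segments had no count in at least 1 HD library, except Igkv13-84. Its 2 counts in treated replicate 3 did not exceed its 2 in WT replicate 3.

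The heavy chain locus gave 78 members of its 185 V segments in the table, the kappa locus 76 of 160 and the lambda locus 2 of 3. They held 17899, 42157 and 1526 counts, or 29.1%, 68.5% and 2.48% of all V counts. Nearly all of the members, 154 of 156, were annotated as functional, which is 71.3% of the 216 functional V segments listed. The pseudogenes Ighv1-14 and Ighv3-2 were the only ones to reach 10 counts of 130 listed, and held 0.216% of V counts. All 133 of those counts, 10 of Ighv1-14 and 123 of Ighv3-2, came from untreated replicate 3.

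The share of heavy segments was alike in all 6 HD libraries, between 27.8% and 31.8% of V counts. Between 2.15 and 2.60 light V counts were recorded for each heavy V count, although heavy and light V segments differ in their distance from the captured 3′ end of the transcript. The kappa share was 63.0%, 57.7% and 70.3% in untreated and 68.7%, 70.7% and 67.6% in treated libraries. Lambda segments varied most. They made up 11.8%, 17.3% and 1.79% of light V counts in untreated mice and 3.63%, 2.04% and 0.886% in treated mice. Untreated replicates 1 and 2 thus stood above the other 4 HD libraries, and untreated replicate 3 lay among the treated ones, so that the groups overlapped.

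Counts were spread over many segments. There were 48, 125 and 147 segments with a count in the untreated libraries and 113, 113 and 103 in the treated ones. Untreated replicate 1, which had the fewest V counts, also had the fewest segments. When every HD library was thinned to 960 V counts, the expected number of segments was 48, 99.1 and 117 for the untreated libraries and 83.6, 76.8 and 72.7 for the treated ones, so untreated replicate 1 remained the lowest at equal depth and the other untreated libraries were the highest.

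The effective number of segments (the inverse Simpson index, which is the number of equally used segments that would give the same concentration of counts) was 19.2, 23.3 and 42.0 in untreated and 24.5, 17.1 and 19.3 in treated libraries. This was 28.2 ± 12.2 and 20.3 ± 3.78 (SD, n = 3), and the ranges overlapped. Untreated replicate 3 lay above the others, and without it the untreated mean was 21.3. The 10 most counted segments held 63.0%, 56.8% and 39.6% of V counts in untreated and 53.9%, 59.4% and 59.3% in treated libraries. To reach 50% of V counts, 7, 8 and 15 segments were needed in untreated and 9, 8 and 8 in treated libraries, and to reach 90%, 24, 47 and 67, and 43, 33 and 32.

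**Figure D2:**
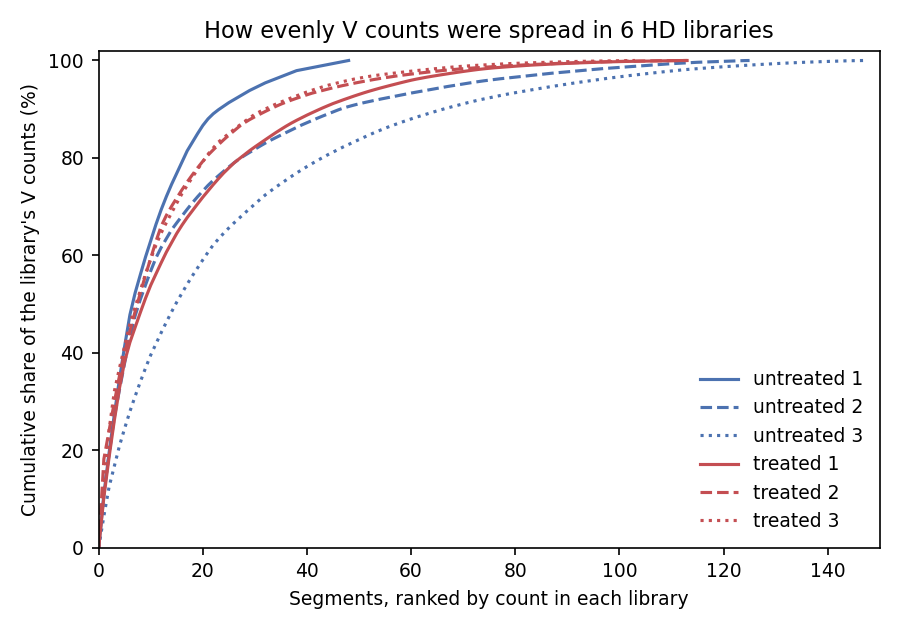
Cumulative share of V counts (vertical axis, %) against the number of segments, ranked by count within each library (horizontal axis), for 3 untreated (blue) and 3 treated (red) HD libraries. Untreated 1 ends at 48 segments and untreated 3 rises most slowly, with 39.6% of its counts on its first 10 segments, while the treated curves run between 53.9% and 59.4% at that rank.

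No segment held more than 18.2% of the V counts of a library. The most counted segment was Igkv17-127 in untreated replicate 1 (11.0% of V counts, 95% exact Clopper-Pearson interval 9.13 to 13.2%), Iglv1 in untreated replicate 2 (11.5%, 10.6 to 12.4%) and Igkv8-24 in untreated replicate 3 (6.52%, 6.10 to 6.96%). In treated mice it was Igkv8-24 in replicate 1 (10.4%, 9.83 to 11.0%), and Igkv4-53 in replicate 2 (18.2%, 17.7 to 18.8%) and replicate 3 (12.2%, 11.6 to 12.8%). The intervals cover counting error only, since reads from amplified libraries are not independent molecules. Thus 4 kappa or lambda segments led the 6 libraries, and no heavy segment led any.

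Among heavy segments alone, Ighv1-15 led untreated replicate 1 with 75 counts (27.4% of heavy V counts), Ighv9-3 led untreated replicate 2 with 286 (18.2%) and Ighv1-9 led untreated replicate 3 with 472 (12.7%). Ighv1-9 also led treated replicate 1 with 904 counts (28.6%), Ighv1-26 led treated replicate 2 with 706 (13.2%) and Ighv2-9 led treated replicate 3 with 551 (14.4%). A leader of 1 library was often rare in the next: Ighv1-15 had 75, 4 and 5 counts in untreated and 41, 8 and 30 in treated libraries. Ighv9-3 had 0, 286 and 106 counts in untreated and 59, 22 and 3 in treated libraries.

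The most counted segment in all, Igkv4-53 (ENSMUSG00000095753), had 22, 401 and 784 counts in untreated and 427, 3495 and 1473 in treated libraries. Igkv8-24 (ENSMUSG00000076583) had 2, 30 and 856 counts in untreated and 1144, 837 and 950 in treated libraries, so that untreated replicate 3 fell among the treated ones and the other 2 far below. Igkv16-104 had 0, 174 and 103 counts in untreated and 155, 662 and 1447 in treated libraries. Igkv12-44 had 6, 300 and 370 and then 335, 1052 and 411, and Igkv6-15 had 4, 268 and 303 and then 213, 1116 and 62. In each of these 5 kappa segments untreated replicate 1 had the lowest count of the 6.

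The 5 most counted heavy segments were Ighv1-9, Ighv1-50, Ighv1-26, Ighv3-6 and Ighv2-9. Ighv1-9 had 17, 48 and 472 counts in untreated and 904, 258 and 204 in treated libraries. Ighv1-50 had 2, 11 and 276 counts in untreated and 602, 319 and 371 in treated libraries, and every treated library lay above every untreated one. The groups overlapped in the other 4. Ighv1-26 had 0, 233 and 207, and then 171, 706 and 235 counts. Ighv3-6 had 65, 61 and 451, and then 50, 593 and 201 counts. Ighv2-9 had 4, 150 and 213, and then 115, 285 and 551 counts. Of the lambda segments, Iglv1 had 81, 597 and 155 counts in untreated and 254, 193 and 58 in treated libraries, and Iglv3 had 0, 34 and 13, and then 31, 90 and 15.

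**Figure D3:**
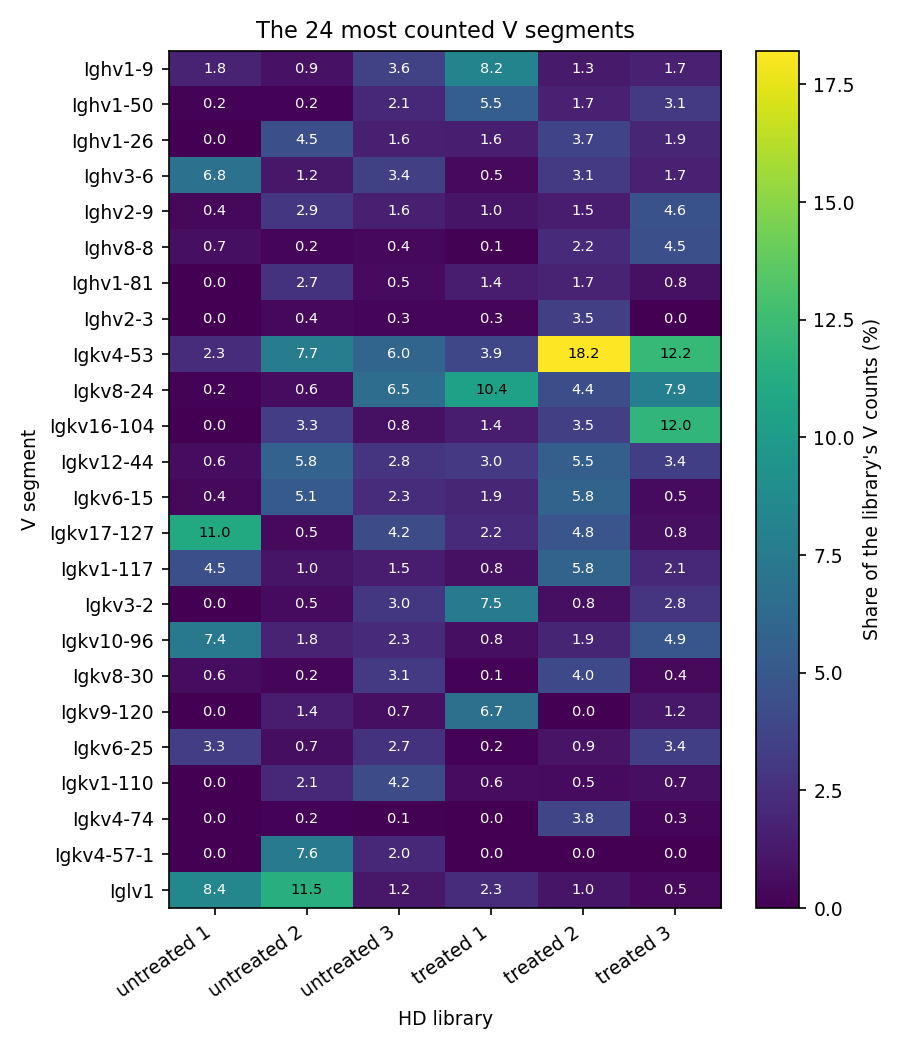
Share of each HD library's V counts (colour and printed values, %) on the 24 most counted segments (rows, grouped as Ighv, Igkv and Iglv) in 6 HD libraries (columns). Bright cells fall in different rows in different libraries, with Igkv17-127 at 11.0% in untreated 1, Iglv1 at 11.5% in untreated 2, Igkv8-24 at 10.4% in treated 1 and Igkv4-53 at 18.2% in treated 2.

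Usage was only partly shared between mice. The shared usage of a pair of libraries, the sum over segments of the smaller of the 2 shares, was 30.8% to 49.3% within untreated, 36.2% to 50.6% within treated and 23.8% to 53.2% between untreated and treated libraries. The highest shared usage was thus found between the groups, and the ranges overlapped. It joined untreated replicate 3 with treated replicate 1 (5 shared segments among the 10 most counted of each), and the lowest joined untreated replicate 1 with treated replicate 1 (0 shared). Untreated replicate 1 shared between 23.8% and 32.9% with the others, and its few V counts limit its precision.

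Segments seen in few mice carried few counts. Of the 156 members, 29 had a count in all 6 HD libraries and held 56.7% of V counts, 47 were counted in 5 libraries, 29 in 4, 28 in 3, 17 in 2 and 6 in 1. Both HD groups had a count for 145 members, only untreated mice for 7 (241 counts) and only treated mice for 4 (72 counts). The 19 most counted segments held 61.4% of V counts, while 71 had fewer than 100.

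By family, as the number before the hyphen gives it, Ighv1 was the largest heavy family with 38 members. It held 53.5% of heavy V counts, beside 46.9% of the functional heavy segments. Its share was 59.5%, 48.9% and 54.1% in untreated and 77.4%, 43.3% and 48.7% in treated libraries. Ighv3 ranged from 1.58% in treated replicate 1 to 23.7% in untreated replicate 1, and Ighv9 reached 18.5% in untreated replicate 2. The Igkv4 family (19 members) held 25.8% of kappa V counts, beside 26% of the functional kappa segments, and ranged from 9.42% in untreated replicate 1 to 33.7% in treated replicate 2. Igkv17 held 22.3% in untreated replicate 1 and between 1.03% and 7.68% in the other 5 libraries. The families Ighv12, Ighv13, Ighv15, Ighv16, Igkv7, Igkv18 and Igkv20 gave no member.

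Usage reached all along both large loci. When the kappa segments were divided into 4 blocks of 40 by their order from the J segments, the blocks held 33.8%, 30.7%, 11.9% and 23.6% of kappa V counts, from the nearest to the farthest, and contained 34, 22, 22 and 22 functional segments. The farthest block held 50.6% of the kappa counts of untreated replicate 1 and 20.6% to 27.5% of those of the other 5 libraries. In the heavy locus, 4 blocks of 46 to 47 segments held between 22.6% and 27.2% of heavy V counts each.

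Many V segments resemble another closely, so the level of a single segment can include reads of its copy. Over the last 250 bases, 80 of the 156 segments (49.1% of V counts) had a neighbour at 95% identity or more and 15 segments (7.04% of V counts) at 98% or more, and no 2 were identical. Igkv4-53 differed from the pseudogene Igkv4-60, which had no count, at 7 of 250 bases. A pair whose usage differed between libraries is printed here, with the 5 of 250 bases that differ in capitals (GENCODE M21 transcripts, coding strand, chromosome 6).
Igkv17-121: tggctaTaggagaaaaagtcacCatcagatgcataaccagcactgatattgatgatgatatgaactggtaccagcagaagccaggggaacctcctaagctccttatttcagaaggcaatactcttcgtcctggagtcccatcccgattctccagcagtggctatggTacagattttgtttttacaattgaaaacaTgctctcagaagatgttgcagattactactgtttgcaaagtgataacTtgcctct
Igkv17-127: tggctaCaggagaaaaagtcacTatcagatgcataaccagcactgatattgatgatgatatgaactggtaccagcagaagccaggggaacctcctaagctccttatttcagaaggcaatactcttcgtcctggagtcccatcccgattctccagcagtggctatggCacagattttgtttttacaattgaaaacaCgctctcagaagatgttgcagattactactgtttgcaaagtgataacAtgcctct
Igkv17-121 had 29, 7 and 24 counts in untreated and 339, 14 and 98 in treated libraries. Igkv17-127 had 106, 24 and 555, and then 242, 923 and 91. Igkv17-127 was the higher of the pair in all 3 untreated libraries and in treated replicate 2, and the lower in treated replicates 1 and 3.

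For the comparison between groups, edgeR's quasi-likelihood test was fitted to all 19463 genes with enough counts, and genes were called differentially expressed (DEGs) when they changed at least 2-fold with P under 0.05 before adjustment. Only 75 of the 156 segments were tested (30 Ighv, 43 Igkv and 2 Iglv). Since WT libraries hold almost no V counts, these 75 entered the test through the HD libraries, so the counts against WT describe them and do not test the set. Between untreated and WT mice, 63 of the 75 were DEGs higher in untreated mice, where 5.57% of all genes tested were, and 0 were lower (2.58% of all genes). With a Benjamini-Hochberg adjusted p under 0.05 as well, 18 remained, where 2.27% of all genes did. Between treated and WT mice, 70 of the 75 were DEGs higher in treated mice (3.84% of all genes), 0 were lower (1.38%) and 12 were higher with an adjusted p under 0.05 (0.545%). The median log2 fold change of the 75 was 7.98 and 9.08, beside 0.02 and 0.00 over all genes tested. When only the libraries compared were fitted, 15 and 39 of the segments were DEGs. The 2 comparisons share the WT libraries.

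Fold changes against WT counts of 0 were computed against 3 counts per library and are lower bounds. On that scale Igkv4-53 exceeded WT at least 127-fold in untreated mice and at least 546-fold in treated mice (edgeR adjusted p = 0.039 and 0.0338). Igkv8-24 was at least 93.6-fold and at least 290-fold higher, with adjusted p-values of 0.0711 and 0.0693. Igkv10-96, with 71, 95 and 297 counts in untreated and 84, 359 and 586 in treated libraries, was at least 49.0-fold and at least 103-fold higher (edgeR adjusted p = 0.015 and 0.0157). Ighv1-55 had 4, 27 and 17 counts in untreated and 33, 111 and 49 in treated libraries and was at least 5.04-fold and at least 19.4-fold higher (edgeR adjusted p = 0.0324 and 0.0171). Segments with evenly spread HD counts such as Igkv10-96 and Ighv1-55 had smaller p-values than the more abundant but more variable Igkv8-24. Iglv1 and Ighv1-9, which had a few WT counts, had fitted log2 fold changes of 7.21 ± 1.19 (SE) and 7.76 ± 1.81 in untreated mice (edgeR adjusted p = 0.00781 and 0.029).

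Between treated and untreated mice no V segment differed at an adjusted p under 0.05, and the smallest adjusted p of edgeR was 0.821. By edgeR, 0 of all 19463 genes tested did either, and their smallest adjusted p was 0.348. At an unadjusted P under 0.05, 11 segments passed by edgeR and 7 by DESeq2. DESeq2 gave 0 segments at an adjusted p under 0.05 as well, beside 44 of all genes. The 11 were DEGs, 9 higher in treated mice, where 0.36% of all genes were, and 2 lower, where 0.411% were. The median log2 fold change over the 75 segments was 1.15, beside −0.01 over all genes, and 55 of the 75 were positive. These 75 passed the filter through the HD libraries compared here, so the shares and the median describe them and do not test the set. Over all 156 segments the median was 0.53 by edgeR without the filter and 0.54 by DESeq2. The numbers of DEGs changed with single libraries. Without untreated replicate 3, 27 segments were DEGs higher in treated mice, whereas 4 were without untreated replicate 1 and 2 without untreated replicate 2. The number lower in treated mice was 10 without untreated replicate 1 and 5 without any WT or any treated library.

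Lower in treated mice, Igkv5-48 (ENSMUSG00000076563) had 17, 156 and 225 counts in untreated and 4, 0 and 14 in treated libraries. Every treated library lay below every untreated one, at 4.49 ± 3.58 CPM in untreated and 0.192 ± 0.234 CPM in treated mice (SD, n = 3). The log2 fold change was −4.52 ± 1.15 (SE; edgeR adjusted p = 0.821), and it was a DEG without any 1 of the 9 libraries, between −6.05 and −3.90. Igkv13-84 had 32, 69 and 42 counts in untreated and 19, 17 and 2 in treated libraries, with a log2 fold change of −2.00 ± 0.67 (SE; edgeR adjusted p = 0.886) that was not a DEG without untreated replicate 2. Its groups did not overlap either. Igkv4-57-1, the third most counted segment of untreated replicate 2, had 0, 395 and 264 counts in untreated and 5, 0 and 4 in treated libraries but was removed by the filter on low counts, and its groups overlapped through the 0 of untreated replicate 1.

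Higher in treated mice, Ighv8-8 had 7, 12 and 49 counts in untreated and 8, 429 and 541 in treated libraries, with a log2 fold change of 3.77 ± 1.30 (SE; edgeR adjusted p = 0.886). Treated replicate 1 lay at the level of the untreated libraries. Igkv4-72 had 0, 10 and 16 counts in untreated and 211, 0 and 416 in treated libraries, with a log2 fold change of 4.47 ± 1.60 (SE; edgeR adjusted p = 0.886), and again 1 treated library was at the untreated level. Ighv1-55 was the more even, and its treated libraries all lay above its untreated ones, with a log2 fold change of 1.93 ± 0.69 (SE; edgeR adjusted p = 0.886). Each of these 3 was no longer a DEG when 1 of 2 or 3 particular libraries was left out, untreated replicate 1 among them. The other DEGs, Igkv17-121, Igkv3-7, Igkv4-74, Ighv10-1, Igkv16-104 and Igkv1-117, had log2 fold changes between 2.27 and 4.82.

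**Figure D4:**
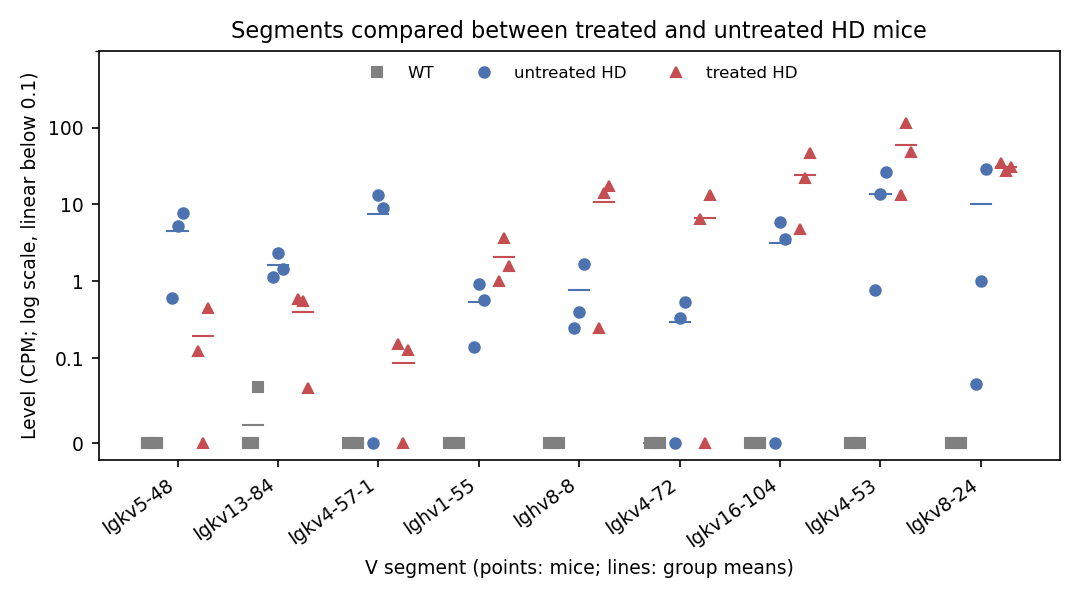
Level of 9 V segments in each mouse (vertical axis, CPM on a log scale that is linear below 0.1), with WT as grey squares, untreated HD as blue circles, treated HD as red triangles and group means as lines. The treated points lie below the untreated ones for Igkv5-48 and Igkv13-84 and above them for Ighv1-55, and at least 1 treated point falls within or below the untreated range in the other 6.

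Over all members, the 3 treated libraries lay above the 3 untreated ones in 3 segments (Ighv1-50, Igkv3-7 and Ighv1-55), and below them in 3 (Igkv5-48, Igkv13-84 and Ighv2-6). Among all 26248 genes compared in this way the shares were 6.04% and 8.54%, both above those of the V segments. The mean CPM was higher in treated mice for 91 of the 156 segments.

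V counts were compared with the counts of the constant regions, the part of the antibody transcript that the V segments of a locus share. For each count of the kappa constant gene Igkc there were 0.780, 0.738 and 0.862 Igkv counts in untreated and 0.894, 0.909 and 0.857 in treated libraries. For each heavy constant count without Ighm, 0.272, 0.278 and 0.268 Ighv counts were recorded in untreated and 0.317, 0.295 and 0.350 in treated libraries, all treated values being the higher. For each lambda constant count there were 0.890, 1.35 and 0.960 Iglv counts in untreated and 1.11, 0.986 and 0.640 in treated libraries, so this ratio varied more and the groups overlapped. Ighm, the constant region of IgM, was left out there because it had 1033, 616 and 375 counts in WT mice, whose libraries held 2, 0 and 0 Ighv counts. Of 13 constant region and J chain genes, 11 were tested. All 11 were DEGs higher in untreated and in treated than in WT mice, each with an edgeR adjusted p under 0.05. Over all genes tested, 2.27% and 0.545% were. Of the 11, Ighg2b, Iglc1, Iglc2 and Iglc3 had no WT count, and Ighg1, Ighg3, Igha and Igkc had at most 10 in a WT library. Like the V segments, these genes entered the test through the HD libraries. The shares over all genes therefore do not make a test of this list. Joining (J) segments were counted mainly in the kappa locus, with 30, 122 and 340 counts in untreated and 278, 449 and 316 in treated libraries.

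Some markers of B cells and plasma cells were higher in HD mice and others were not. Of 15 B cell markers, 8 were tested, and 4 were DEGs higher in untreated and 4 in treated mice than in WT mice, 2 of them in each with an adjusted p under 0.05. The summed level of that list was 6.25 to 9.44 CPM in WT, 9.19 to 26.6 CPM in untreated and 13.9 to 18.4 CPM in treated mice. Cd22, an inhibitory receptor of B cells, had 0, 2 and 9 counts in WT, 22, 65 and 227 in untreated and 76, 49 and 118 in treated libraries. Ms4a1, which encodes CD20, had no count in WT mice and untreated replicate 1. Of 12 plasma cell markers, 11 were tested, and 5 were DEGs higher in untreated and 4 in treated mice than in WT mice, 2 of them in each with an adjusted p under 0.05, beside DEG shares of 5.57% and 3.84% over all genes tested. Pou2af1, a transcriptional coactivator of B-lineage cells, had 0, 1 and 0 counts in WT, 7, 43 and 116 in untreated and 41, 59 and 50 in treated libraries. Mzb1, which assists antibody secretion, had 1, 6 and 7 counts in WT, 16, 34 and 71 in untreated and 51, 94 and 59 in treated libraries. In the same list Xbp1, a transcription factor of secretory cells, had negative log2 fold changes of −0.58 ± 0.13 in untreated and −0.42 ± 0.13 in treated mice (SE; edgeR adjusted p = 0.0286 and 0.11), below the 2-fold threshold. Fkbp11, with 26, 20 and 35 counts in WT, 12, 18 and 14 in untreated and 17, 15 and 22 in treated libraries, had −0.93 ± 0.32 and −0.74 ± 0.32 (SE; edgeR adjusted p = 0.093 and 0.22). The summed level of the plasma cell list did not follow the V counts, at 166.5 to 203.3 CPM in WT, 139.3 to 163.9 CPM in untreated and 149.1 to 181.1 CPM in treated mice, because Xbp1 and Txndc5, which many cell types express, hold most of it.

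Of 7 genes of B cell attraction and plasma cell survival, 5 were tested. In each HD group 2 were DEGs higher than in WT mice, beside 5.57% (untreated) and 3.84% (treated) of all genes tested. With an edgeR adjusted p under 0.05 as well, 2 remained in untreated and 0 in treated mice. Cxcl13, which draws B cells into tissue, had 0, 2 and 0 counts in WT, 36, 155 and 574 in untreated and 30, 65 and 271 in treated libraries, and so was not ordered as the V counts were. Markers of red blood cells, which could reach the sample with blood, were summed to 107.1 to 190.0 CPM in WT, 3.09 to 67.3 CPM in untreated and 2.77 to 51.5 CPM in treated mice, lower in every HD library than in any WT library. All 5 were DEGs lower in treated than WT mice (1.38% of all genes tested), 0 of them with an edgeR adjusted p under 0.05. In untreated mice 0 were DEGs. Markers of choroid plexus were summed to 66.4 to 3801 CPM in WT, 36.3 to 188.2 CPM in untreated and 40.4 to 1285 CPM in treated mice. All 8 were DEGs lower in untreated than WT mice (2.58% of all genes tested), 1 of them with an edgeR adjusted p under 0.05. In treated mice 0 were DEGs. Markers of meningeal fibroblasts were summed to 35.7 to 170.5 CPM in WT, 31.7 to 48.2 CPM in untreated and 43.5 to 105.6 CPM in treated mice. The highest of these sums were mostly Igf2, with 150.9 CPM in WT replicate 2 and 78.7 CPM in treated replicate 3. Igf2 was the only DEG of that list of 7, lower in untreated than WT mice (2.58% of all genes tested). The part of choroid plexus, meningeal fibroblasts and blood in the V counts was not otherwise tested.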

How the data were processed

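Striatal RNA of 9 mice was captured by its poly(A) tail with a 3′ mRNA kit, so a V segment, near the 5′ end of the antibody transcript, is counted only from fragments that reach it. The authors deposited raw counts per Ensembl gene without normalization. The paper names STAR, whereas the submitters' processing notes list Trimmomatic 0.39, FastQC 0.11.9, HISAT2 2.2.1 and featureCounts 2.0.1. How reads that match several segments were counted, and the mouse build, are not given in the sources used here, so only chromosomes are given. V segments were found by symbol, 348 of 348 being placed in GENCODE M21. Counts were fitted in R 4.3.3 with edgeR 4.0.16 (filterByExpr, TMM, glmQLFit, glmQLFTest on all 9 libraries, 6 residual degrees of freedom), and p-values were adjusted by Benjamini-Hochberg over all genes tested. The edgeR fit was tested on simulated counts of genes that passed the filter, with changes set between treated and untreated mice only. The usage steps were not tested in this way. Each standard error was obtained by dividing a log2 fold change by the root of its F statistic. CPM used TMM library sizes. Shares carry 95% Clopper-Pearson intervals. Library totals were 27184356 to 32102121 counts, and V totals set the precision of usage. Alternatives were DESeq2 1.42.0, no TMM factors, no filter, other thresholds, the compared groups alone, a replicate block, other segment sets or indices, and each library left out.

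The segments and marker lists were chosen with earlier results of these data known, and no value is given as independent support. Named segments were the 3 most counted of each HD library, the 5 most counted Ighv and Igkv and up to 3 Iglv, the smallest P of each locus in each comparison, the DEGs between HD groups (the 5 with the smallest P), up to 3 with the most WT counts, those just inside and outside the threshold, and from the marker lists up to 3 DEGs each. Promoters of V segments, the pig libraries and amino acid sequences were not analysed here. Another marker list is not reported here. Figures were drawn with matplotlib 3.10.9.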

Additional observations from a re-analysis of the deposited data

How the results depend on the processing

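The number of V segments called higher than in WT (63 for untreated and 70 for treated mice) fell to 26 and 43 at an unadjusted P under 0.01, to 18 and 12 at an adjusted p under 0.05 and to 15 and 39 when only the compared groups were fitted. Of the segments called between treated and untreated mice (9 higher, 2 lower), DESeq2 gave 3 higher and 4 lower, the fit without a filter gave 8 lower, P under 0.01 gave 0 and 1, and an adjusted p under 0.05 gave 0 and 0. With each library left out in turn, between 2 and 27 were higher and between 2 and 10 lower, in part because the filter then tested 82 to 107 of the segments and not 75. The effective number of segments was 28.2 in untreated and 20.3 in treated mice, 11.2 and 9.39 when segments were joined into families, 12.3 and 11.4 for heavy segments alone, and 12.0 for kappa segments alone in treated mice. By the Shannon index, which weights rare segments more and was added after seeing the data, it was 44.9 and 35.3. The other settings tried moved none of the counts by over 1.5 times and none of the other values by over 1 SD. For single named segments, 738 alternative values kept their call, 76 lost it and 0 changed sign.

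The replicate numbers are not stated to mark a litter, batch or day. The deviations of libraries with the same number correlated at −0.08 to 0.24 over genes, and 2 to 4 of the 6 libraries of a comparison correlated best with their own number. With a replicate block, 64 segments were called in untreated and 66 in treated mice against WT, and 12 were higher and 2 lower in treated than untreated mice.

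Depth limits usage most in untreated replicate 1 (960 V counts) and prevents any reading of usage in WT mice (5 to 7 V counts). With 3 mice per group, the spread among untreated mice in summed V level spans 33.7 to 446 CPM. Levels of near-identical segments depend on how reads with several matches were counted, which was not tested.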

Other observations

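T cell receptor V segments, the matching gene segments of T cells, were counted in all groups, above immunoglobulin V segments in each WT library and far below them in each HD library. They had 41, 45 and 50 counts in WT, 36, 63 and 270 in untreated and 68, 63 and 91 in treated libraries, so untreated replicate 3 stood above the others, as it did in immunoglobulin V counts among untreated mice. These counts fell on 10, 9 and 12 segments in WT, 14, 25 and 50 in untreated and 20, 25 and 31 in treated libraries. Of 12 T cell markers, 11 were DEGs higher (5.57% of all genes tested) and 1 lower (2.58%) in untreated than WT mice. In treated mice 7 were higher (3.84%) and 1 lower (1.38%) than in WT mice. With an edgeR adjusted p under 0.05 as well, 5 and 0 remained among those higher, where 2.27% and 0.545% of all genes did. Cd3d and Cd3g had no WT count, and Cd3e, Cd8a, Cd8b1 and Nkg7 had at most 4 in a WT library. These genes entered the test through the HD libraries, so the shares do not make a test of this list. Each of them had its highest count in untreated replicate 3, as with Cd3g at 11, 34 and 333 counts in untreated libraries. The lower marker was Cd4 in both comparisons with WT mice, with log2 fold changes of −1.99 ± 0.15 and −1.18 ± 0.14 (SE; edgeR adjusted p = 2.39e-04 and 0.00389). Cd4 stood at 62.6, 79.8 and 73.5 CPM in WT mice, where Cd3e had 0, 0 and 2 counts. Its level there thus did not follow that of the Cd3 genes, and which cells held it was not tested.

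Among the heavy J segments, Ighj1 to Ighj4 together had 7, 7 and 9 counts in WT mice and 9, 12 and 31 in untreated and 25, 39 and 47 in treated libraries. WT mice therefore held J counts, as they held counts of Ighm, with almost no Ighv counts. The kappa J segments had 0, 5 and 3 counts in WT mice. Of the kappa J segments, Igkj3 had 2, 0 and 3 counts in untreated and 4, 3 and 3 in treated libraries, the fewest of the 5 in every HD library except untreated replicate 1, where it tied with Igkj4 at 2.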
